A study of Rattus norvegicus with 42 samples.

Results

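The 9 genes described here are the astrocyte transporters Slc1a2, Slc1a3, Slc4a4, Slc7a10 and Slc13a5, the water channel Aqp4, the enzyme Glul and the connexins Gja1 and Gjb6. Members were found by gene symbol in the deposited counts, where all 9 symbols were listed with 18 RefSeq transcripts, of 15516 transcripts and 14304 symbols in all. Slc1a2 had 3 transcripts, Slc1a3 had 4, Aqp4 had 5, and each of the other symbols had 1. The Aqp4 transcripts NM_001317749 and NM_012825 held the same values in every animal, so that 17 transcripts carried distinct values. All 18 passed the filter on low counts, which kept 13062 transcripts. The set was selected on astrocyte genes whose differences between treatments in these same counts, pooled and within the sample codes, were already known, so the adjusted p-values below describe these animals and are not independent evidence.

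Male Sprague Dawley rat pups received 1 intraperitoneal injection on postnatal day 7 of saline as vehicle (VEH), of the barbiturate phenobarbital at 75 mg/kg (PB), or of levetiracetam at 200 mg/kg (LEV), and hippocampal RNA was sequenced 72 hours later. Each library came from 1 animal, with 1 animal per litter in each treatment group, and the libraries analysed were 13 from VEH, 14 from PB and 14 from LEV. Their codes had 2 letters for animals 1 to 6 of each group and 1 letter for animals 7 to 14, and the labels state that animals came in 2 purchases without saying which code belongs to which. VEH animal 7, which the study excluded for its coverage, was left out, so that animals 7 to 14 held 7 VEH, 8 PB and 8 LEV animals. PB and LEV are both antiseizure drugs, and the question addressed is whether a single early exposure to either drug shifts expression of these astrocyte genes relative to VEH.

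Astrocytes take up glutamate released at synapses through the transporters encoded by Slc1a2 (GLT-1) and Slc1a3 (GLAST), and glutamine synthetase, encoded by Glul, converts it to glutamine that is returned to neurons. The electrogenic sodium bicarbonate cotransporter encoded by Slc4a4 couples astrocyte pH to neuronal activity, Slc7a10 encodes an exchanger of small neutral amino acids such as serine and glycine, and Slc13a5 encodes a sodium-coupled citrate transporter. Aqp4 is the water channel of astrocyte endfeet around vessels, and the connexins encoded by Gja1 and Gjb6 form the gap junctions that join astrocytes into a network. Slc1a2 and Aqp4 are known to rise in the rodent forebrain over the early postnatal weeks as astrocytes mature.

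The sequences upstream of the 5 transporter genes are shown because each of these genes had at least 1 called difference between treatments, and Aqp4, which also had one, is not shown. RefSeq starts on the GRCr8 build matched all 9 symbols with 15 windows, and the 250 bases before the start were read 5′ to 3′ on the strand of the gene. Capitals mark matches on either strand to the TATA box (TATAAA, in 12.9% of 33465 windows of the same length), the CCAAT box (CCAAT, 34.0%), the GC box (GGGCGG, 30.5%), the E-box (CACGTG, 5.59%) and the cyclic AMP response element (TGACGTCA, 1.59%). The windows lie at chr14:19468283-19468532 on the minus strand for Slc4a4, chr3:109459859-109460108 on the plus strand for Slc1a2, chr2:59557788-59558037 on the minus strand for Slc1a3, chr1:96965872-96966121 on the plus strand for Slc7a10 and chr10:57388849-57389098 on the minus strand for Slc13a5.
Slc4a4: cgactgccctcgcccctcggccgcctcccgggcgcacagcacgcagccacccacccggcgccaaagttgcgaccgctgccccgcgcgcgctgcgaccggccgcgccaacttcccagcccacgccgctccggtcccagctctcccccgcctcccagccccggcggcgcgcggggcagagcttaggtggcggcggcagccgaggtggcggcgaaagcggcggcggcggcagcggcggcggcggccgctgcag
Slc1a2: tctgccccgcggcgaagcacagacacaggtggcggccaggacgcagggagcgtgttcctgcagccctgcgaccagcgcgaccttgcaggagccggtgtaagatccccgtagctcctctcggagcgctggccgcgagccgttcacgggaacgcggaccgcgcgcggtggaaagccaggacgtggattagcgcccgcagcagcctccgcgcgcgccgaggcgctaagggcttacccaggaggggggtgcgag
Slc1a3: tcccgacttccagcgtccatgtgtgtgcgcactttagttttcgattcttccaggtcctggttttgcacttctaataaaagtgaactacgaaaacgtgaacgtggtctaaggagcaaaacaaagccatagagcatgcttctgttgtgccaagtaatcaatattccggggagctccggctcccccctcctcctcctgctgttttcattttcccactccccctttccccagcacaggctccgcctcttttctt
Slc7a10: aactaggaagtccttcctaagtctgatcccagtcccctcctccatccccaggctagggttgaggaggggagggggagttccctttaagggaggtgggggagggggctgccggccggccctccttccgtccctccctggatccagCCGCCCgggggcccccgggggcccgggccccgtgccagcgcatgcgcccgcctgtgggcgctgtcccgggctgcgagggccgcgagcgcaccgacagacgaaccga
Slc13a5: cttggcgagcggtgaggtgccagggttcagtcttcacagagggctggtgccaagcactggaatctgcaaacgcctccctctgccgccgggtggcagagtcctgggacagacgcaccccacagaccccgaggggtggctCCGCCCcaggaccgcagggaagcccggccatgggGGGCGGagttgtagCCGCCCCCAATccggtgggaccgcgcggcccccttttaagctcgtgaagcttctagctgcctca

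The windows of Slc4a4, Slc1a2 and Slc1a3 held no match to the 5 motifs. The Slc1a2 window precedes 1 of the RefSeq starts of the gene. Another start lay 47838 bases after it on GRCr8, while NM_001302089 begins 122086 bases after the first start on rn6. These gaps are on different builds, so which RefSeq start belongs to NM_001302089 was not determined. The Slc7a10 window held 1 GC box, whose leftmost base lay at position -106 from the start. The Slc13a5 window held 3 GC boxes, at -112, -78 and -64, and a CCAAT box at -58, directly after the last of them. GC content was 80.8% for Slc4a4 with 42 CpG dinucleotides, and 99.1% of windows had less GC. It was 71.2% for Slc1a2 (33 CpG), 72.4% for Slc7a10 (20 CpG), and 67.6% for Slc13a5 (17 CpG). The Slc1a3 window had 50% with 10 CpG, and the median over all windows was 51.2% and 5 CpG. A match is a description of the letters and not evidence of a bound site.

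Library totals ranged from 9499492 to 14488134 estimated counts. All 7 hippocampal marker symbols were listed, with summed normalized counts of 7733 to 10583 in every animal. Choroid plexus markers varied from 102 to 84972 normalized counts between animals. The share of counts from 18S ribosomal RNA was 0.932% to 1.68% in animals 1 to 6, while in animals 7 to 14 its median was 1.13% in VEH, 0.694% in PB and 0.507% in LEV. The part of these differences in the results was not tested except where a fit with them as a covariate is given. In bulk tissue, fewer astrocytes and less RNA per astrocyte cannot be told apart.

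Over all animals, PB lowered Slc7a10 and Slc13a5, and none of the 18 transcripts passed the limits for LEV. Within animals 1 to 6 LEV lowered Slc4a4, Slc1a2, the main Slc1a3 transcript and Aqp4 NM_001317749 with its copy NM_012825. A transcript counted as differentially expressed in edgeR's quasi-likelihood test when the adjusted p was under 0.05 and the log2 fold change was 0.32 or more in size, which is referred to as the fold limit. PB against VEH called 2 of the 18 members, where 0.605% of all tested transcripts were called, and 3 at the adjusted p alone, where 5.39% were. LEV against VEH called 0 members in edgeR and 0 in DESeq2, with 4 at an unadjusted p under 0.05, and 0% of all transcripts were called (0.00766% at the adjusted p alone). Of all 13062 transcripts, 763 had an unadjusted p under 0.05 for LEV. PB against LEV called 1 member, against 0.582% of all transcripts (4.45% at the adjusted p alone). The median log2 fold change of the 18 transcripts was -0.10 for PB and -0.10 for LEV, beside 0.00 for all transcripts in both comparisons. The PB and LEV comparisons share the VEH animals, so their values are given side by side only.

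The same counts differed by form of sample code. In animals 1 to 6, LEV against VEH called 7 members, 6 of them lower, with 0.911% of all transcripts called, and the member median was -0.28 beside 0.01 over all transcripts. PB against VEH called 1 member (0.0459% of all transcripts) and PB against LEV called 0 by edgeR and 1 by DESeq2 (0.0459% of all transcripts), with 4 members at an unadjusted p under 0.05. At that unadjusted limit, 1566 of all 13062 transcripts passed for PB against LEV. In animals 7 to 14, LEV against VEH called 0 members by edgeR and by DESeq2 (0.0383% of all transcripts called). There, 2 members and 801 of all 13062 transcripts had an unadjusted p under 0.05 for LEV. PB against VEH called 3 members there (1.52% of all transcripts) and PB against LEV called 2 (0.528%). The plot of normalized counts by animal shows these patterns for the 5 transporters and Aqp4. How many of all transcripts lacked overlap between groups was not counted, so a lack of overlap below only describes the values.

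**Figure D1:**
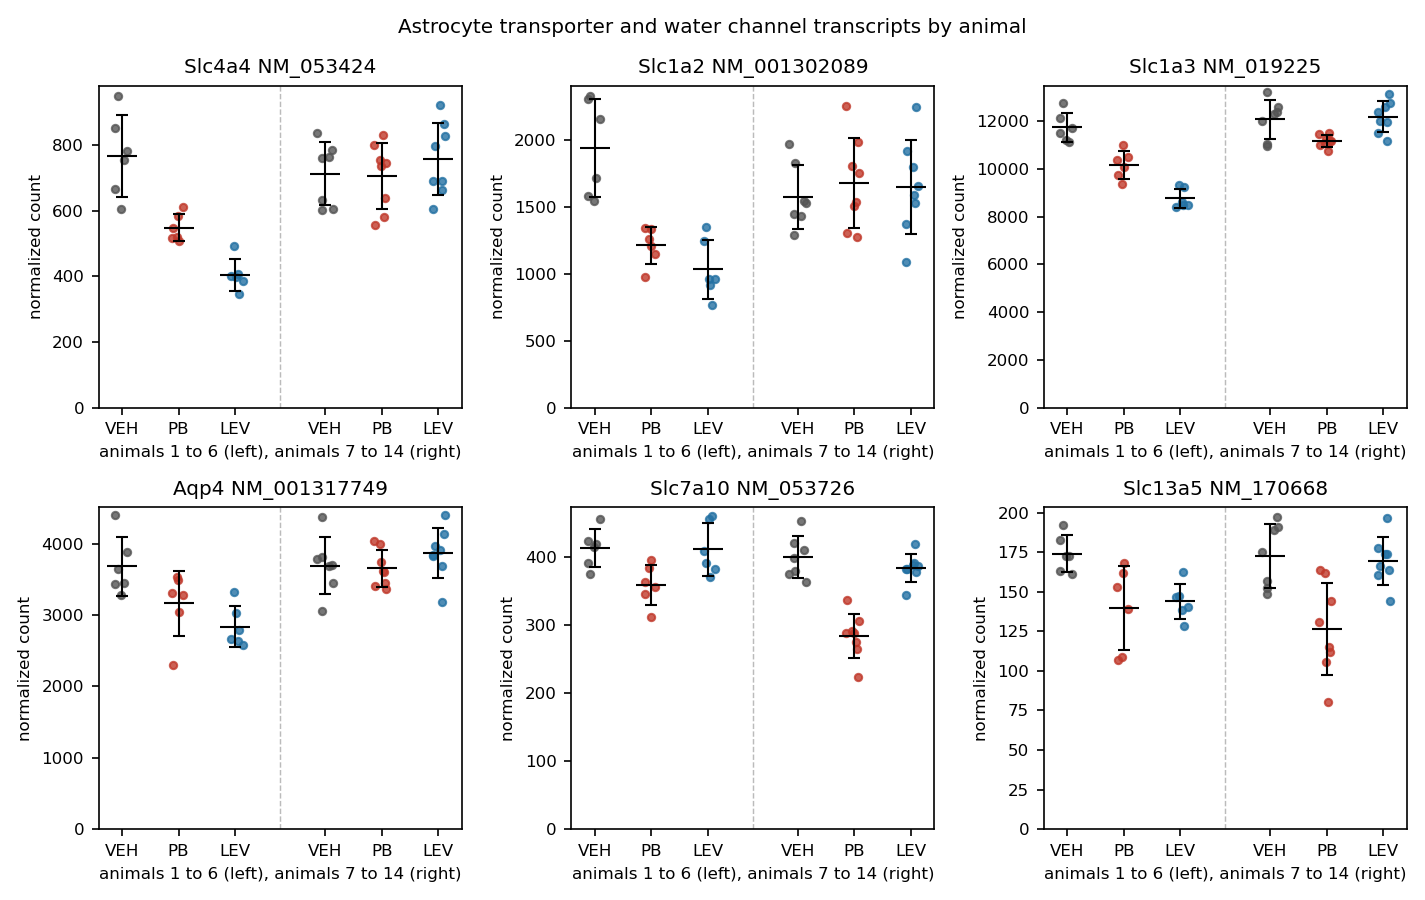
Normalized counts (linear axis from 0) of 6 member transcripts, with 1 point per animal and the mean ± SD of each group as black lines, for VEH, PB and LEV in animals 1 to 6 (left of each panel) and animals 7 to 14 (right). LEV animals 1 to 6 lie below VEH without overlap for Slc4a4, Slc1a2 and Slc1a3, and PB animals 7 to 14 lie below VEH without overlap for Slc7a10.

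Slc4a4 (NM_053424, rn6 chr14:20480128-20816589) had the largest fold change among the 6 members called lower after LEV in animals 1 to 6. VEH animals 1 to 6 had 604.1, 767.9 and 950.4 normalized counts (lowest, median, highest), PB animals 508.3, 534.2 and 611.8, and LEV animals 346.0, 398.8 and 493.3. All 6 of these LEV animals lay below all 35 other animals of the series, whose lowest value was 508.3. The log2 fold change of LEV against VEH was -0.92 ± 0.11 (SE, n = 6 per group, adjusted p = 1.21e-06 by edgeR), and the 6 PB animals, all below the VEH mean, gave -0.49 ± 0.11 (adjusted p = 0.0512), which just missed the limit.

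The 3 groups overlapped throughout for Slc4a4 in animals 7 to 14. The lowest, median and highest values were 601.5, 762.6 and 836.2 in VEH, 558.2, 741.1 and 830.4 in PB, and 605.9, 745.2 and 922.5 in LEV. The LEV difference was 0.09, with a 95% interval from -0.10 to 0.28, and the PB difference was -0.01, from -0.20 to 0.17. The LEV difference in animals 7 to 14 exceeded that in animals 1 to 6 by 1.01 ± 0.14 on the log2 scale (adjusted p = 0.000128 for the interaction term), and it remained past the limit when the excluded VEH animal was included (0.87, adjusted p = 0.0380). Over all animals together the LEV fold change was -0.35 ± 0.10 (adjusted p = 0.53). The pooled difference had the direction of animals 1 to 6 but did not pass the adjusted p limit.

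Slc1a2, the main glutamate transporter of the mature forebrain, had 3 transcripts on rn6 chromosome 3. NM_001035233 (chr3:92518679-92662197) and NM_017215 (chr3:92518679-92665732) begin at the same base, and NM_001302089 (chr3:92640765-92665732) begins 122086 bases further on. NM_001302089 took 84.1% ± 1.59 (SD, n = 6) of the gene's counts in VEH animals 1 to 6, NM_001035233 took 15.3% ± 1.47, and NM_017215 took 0.613% ± 0.235. These shares rest on the authors' statistical division of reads among overlapping transcripts.

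NM_001302089 had 1543, 1938 and 2324 normalized counts in VEH animals 1 to 6 (lowest, median, highest), 976.3, 1233 and 1340 in PB, and 769.6, 958.7 and 1347 in LEV. Neither drug group overlapped VEH. LEV lowered it by a log2 fold change of -0.91 ± 0.15 (adjusted p = 0.000217) and PB by -0.68 ± 0.15 (adjusted p = 0.0492). The PB call was lost in 8 of the 12 fits that left out 1 animal, namely VEH animal 1, 2, 3 or 4 or PB animal 2, 3, 5 or 6 (adjusted p up to 0.190), and with the 18S share as a covariate (-0.66, adjusted p = 0.0567). The LEV call held in all 12. The VEH animals were themselves spread, with 2302, 2324 and 2157 in animals 1 to 3 and 1718, 1578 and 1543 in animals 4 to 6.

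The minor transcript NM_001035233 fell as well after LEV in animals 1 to 6, from 302.3, 339.9 and 403.4 in VEH to 188.8, 232.0 and 264.8 (-0.60 ± 0.13, adjusted p = 0.0093). NM_017215 had few counts, 9.93 to 27.2 in VEH and 1.84 to 4.16 in LEV, without overlap, and its log2 fold change of -2.12 ± 0.58 had an adjusted p of 0.0529. Animals 7 to 14 gave, for NM_001302089, 1285, 1529 and 1966 in VEH, 1274, 1644 and 2251 in PB and 1087, 1622 and 2248 in LEV. The groups overlapped over nearly their whole range, the LEV difference was 0.07 (95% interval -0.19 to 0.32), and the difference between code forms was 0.97 ± 0.20 (adjusted p = 0.00593). With the excluded VEH animal included, this difference was 0.65 with an adjusted p of 0.49, so the call depended on leaving that animal out.

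One Slc1a2 value ran the other way. NM_017215 was called higher after PB in animals 7 to 14 (1.44 ± 0.43, adjusted p = 0.0369), with 3.34, 25.5 and 62.1 normalized counts in PB and 3.57, 9.54 and 14.7 in VEH. Only 6 of the 8 PB animals were above the VEH mean, the call was lost in 7 of 15 fits, without VEH animal 9, 12, 13 or 14 or PB animal 7, 8 or 10 (adjusted p up to 0.105), and it rested on at most 62.1 counts per animal. Over all animals the 3 transcripts gave PB differences of -0.09, -0.28 and 0.28 and LEV differences of -0.32, -0.39 and -0.65, and none passed the limit.

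Slc1a3, the glutamate transporter that predominates in immature astrocytes and radial glia, had 4 transcripts on rn6 chromosome 2 whose starts differ by 11 and 21 bases. NM_019225 (chr2:57860881-57935343) held most of the counts. In animals 1 to 6 it had 11116, 11603 and 12745 normalized counts in VEH, 9356, 10216 and 11015 in PB, and 8408, 8559 and 9313 in LEV. The 3 groups did not overlap, and all 6 LEV animals lay below the other 35 animals of the series.

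The LEV fold change of NM_019225 in animals 1 to 6 was -0.42 ± 0.04 (adjusted p = 1.09e-07), the smallest adjusted p of any member in that comparison. The PB fold change was -0.21 ± 0.04 (adjusted p = 0.0492), under the fold limit, and it stayed past the adjusted p limit in 2 of 12 fits that left out 1 animal, those without VEH animal 6 or PB animal 1 (up to 0.175 in the others). PB lay above LEV by 0.22 ± 0.04 (adjusted p = 0.0343), also under the fold limit and lost in 8 of 12 such fits, without PB animal 1, 3, 4 or 6 or LEV animal 2, 4, 5 or 6 (adjusted p up to 0.167), and lost with the 18S share as a covariate (adjusted p = 0.0600). The VEH group of animals 7 to 14 had 10971, 12317 and 13228, PB 10751, 11164 and 11492, and LEV 11165, 12185 and 13151, so that PB and VEH overlapped, and so did LEV and VEH. The LEV difference there was 0.01 (95% interval -0.06 to 0.09) and differed from that in animals 1 to 6 by 0.44 ± 0.06 (adjusted p = 9.5e-05). It held when all 14 VEH animals entered (0.42, adjusted p = 0.00063).

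For PB, NM_019225 passed the adjusted p limit over all animals and in animals 1 to 6 but not in animals 7 to 14 (-0.11 ± 0.04, adjusted p = 0.0773). Over all animals the difference was -0.16 ± 0.05 (adjusted p = 0.0286), below the fold limit, and the values of 14 of 14 PB animals were under the mean of VEH with the same code form. The adjusted p passed the limit in 39 of 41 fits that left out 1 animal and was lost without VEH animal 2 or PB animal 7, reaching 0.0538. It was also lost with the replicate block in place of code form (adjusted p = 0.0650). PB and LEV moved apart between the code forms. PB minus LEV was 0.22 for the 2-letter codes and -0.13 for the 1-letter codes, a change of -0.34 ± 0.06 (adjusted p = 0.00537), which was lost without LEV animal 2, 4 or 5 (adjusted p up to 0.0833).

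The other Slc1a3 transcripts did not follow NM_019225. NM_001289943 (chr2:57860881-57935353) had 160.6, 284.2 and 330.4 normalized counts in VEH animals 1 to 6, 401.6, 474.9 and 601.7 in PB and 461.9, 585.7 and 734.0 in LEV. Every drug-treated animal lay above every VEH animal. LEV raised it by 1.14 ± 0.19 (adjusted p = 0.000427), and PB gave 0.83 ± 0.19 (adjusted p = 0.0666). These 6 VEH animals were also below the other 35 analysed animals, but the excluded VEH animal 7, of the 1-letter codes, was as low (159 normalized counts, scaled with it included). VEH animals of the 1-letter codes had 607.0, 1135 and 1847, PB animals 633.8, 870.3 and 1095, and LEV animals 570.7, 755.1 and 1119.

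The difference between code forms for NM_001289943 was -1.61 ± 0.25 for LEV (adjusted p = 0.000186) and -1.19 ± 0.25 for PB (adjusted p = 0.035). With all 14 VEH animals neither passed (adjusted p of 0.140 and 0.755), and the PB difference passed in 13 of 27 fits that left out 1 animal. It was lost without VEH animal 2, 3, 5, 6, 9, 13 or 14 or PB animal 1, 5, 6, 8, 9, 10 or 12 (adjusted p up to 0.115). NM_001289941 averaged 282.6 ± 61.2 (SD, n = 6) for VEH, 325.0 ± 62.0 for PB and 421.9 ± 62.6 for LEV with 2-letter codes, and NM_001289942 had 67.0 ± 23.6, 94.4 ± 33.4 and 102.2 ± 30.2. Neither passed the limit in edgeR (adjusted p = 0.206 and 0.425 for LEV).

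Expressed as a share of the gene's counts, NM_019225 fell in animals 1 to 6 from 94.96% ± 0.906 (SD, n = 6) in VEH to 91.8% ± 1.19 in PB and 88.6% ± 1.42 in LEV. The share of NM_001289943 rose from 2.22% ± 0.556 to 4.40% ± 0.691 and 6.09% ± 1.16. All of these drug groups were separate from VEH, with an exact two-sided permutation p of 0.00216, the smallest that 6 against 6 animals can give, and an adjusted p of 0.0238 over 66 tests within the code forms. The share of NM_001289941 also rose after LEV, from 2.29% to 4.26% (exact permutation, adjusted p = 0.0238), and that of NM_001289942 from 0.535% to 1.04% (adjusted p = 0.0357).

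The NM_019225 share of animals 7 to 14 was 85.1% ± 3.70 in VEH, 86.9% ± 1.77 in PB and 88.2% ± 2.73 in LEV, and no Slc1a3 share passed there. VEH animals 1 to 6 had the highest shares of the 41 analysed animals, from 94.1% to 96.5%, while the excluded VEH animal 7 had 97.6%. The shares of a gene add up to the whole, so a fall in 1 goes with a rise in others. Their tests are therefore not independent of each other. Of 33 permutation tests over all animals within code-form strata, 0 passed after adjustment, and 12 of the 66 exact tests within a code form did. These 12 included shares of Aqp4 NM_001270558 in animals 1 to 6, which rose from 4.93% ± 0.508 in VEH to 7.13% ± 1.246 in PB (adjusted p = 0.0476) and 7.71% ± 1.57 in LEV (adjusted p = 0.0429). The share of Slc1a2 NM_017215 fell after LEV from 0.613% to 0.246% (adjusted p = 0.0238, exact permutation).

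The last 3 of the 12 compared PB with LEV. In animals 1 to 6 the share of Slc1a3 NM_001289941 was 2.94% after PB and 4.26% after LEV (exact permutation, adjusted p = 0.0429), and that of NM_019225 was 91.8% and 88.6% (adjusted p = 0.0357). The share of Slc1a2 NM_001302089 in animals 7 to 14 was 80.9% ± 2.06 after PB and 83.6% ± 1.26 after LEV (exact permutation, adjusted p = 0.0476). The plot of shares by animal shows how far the code forms differed among VEH animals alone.

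**Figure D2:**
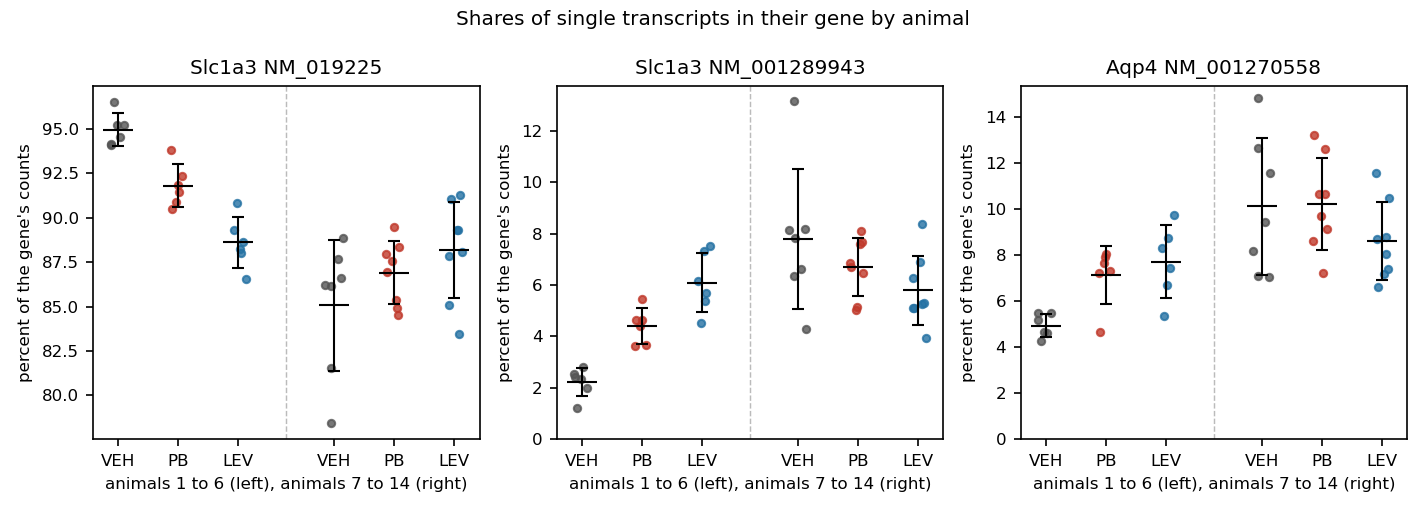
Percent of the gene's counts taken by Slc1a3 NM_019225 (axis not from 0), Slc1a3 NM_001289943 and Aqp4 NM_001270558, with 1 point per animal and the mean ± SD of each group as black lines. VEH animals 1 to 6 have the highest NM_019225 shares of the 41 animals plotted, 94.1% to 96.5%, and in animals 7 to 14 the 3 treatments overlap in every panel.

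Aqp4 lies on rn6 chromosome 18 (chr18:6766009-6782758 for NM_001317749 and NM_012825), and its transcripts use 2 starts 916 bases apart. NM_001317749 had 3278, 3548 and 4400 normalized counts in VEH animals 1 to 6, 2304, 3295 and 3537 in PB, and 2575, 2730 and 3317 in LEV. All 6 LEV animals lay below the VEH mean, but the highest LEV animal exceeded the lowest VEH animal. The LEV fold change was -0.38 ± 0.08 (adjusted p = 0.00957), and without VEH animal 1 it was -0.31 with an adjusted p of 0.0626. PB gave -0.22 ± 0.08 (adjusted p = 0.356).

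NM_001317749 in animals 7 to 14 had 3049, 3702 and 4371 in VEH, 3367, 3605 and 4032 in PB and 3179, 3872 and 4401 in LEV, with a LEV difference of 0.07 (95% interval -0.08 to 0.21). The difference between code forms was 0.44 ± 0.11 (adjusted p = 0.0449), which passed in 8 of 27 fits that left out 1 animal, those without VEH animal 4, 6, 10 or 13 or LEV animal 1, 8, 11 or 12 (adjusted p up to 0.111 in the others), and not with all 14 VEH animals (adjusted p = 0.155). It also did not pass in edgeR without the filter on low counts (0.44, adjusted p = 0.0574) or with the choroid plexus level as a covariate (0.40, adjusted p = 0.0625). The start used by NM_001142366 and NM_001270559 gave no call. NM_001142366 had 1715 ± 102 (SD, n = 6) normalized counts in VEH animals 1 to 6 and 1319 ± 302 in LEV (-0.38 ± 0.13, adjusted p = 0.162). NM_001270558 and NM_001270559 gave 0.30 and 0.35 in the same comparison, with adjusted p of 0.573 and 0.657.

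**Figure D3:**
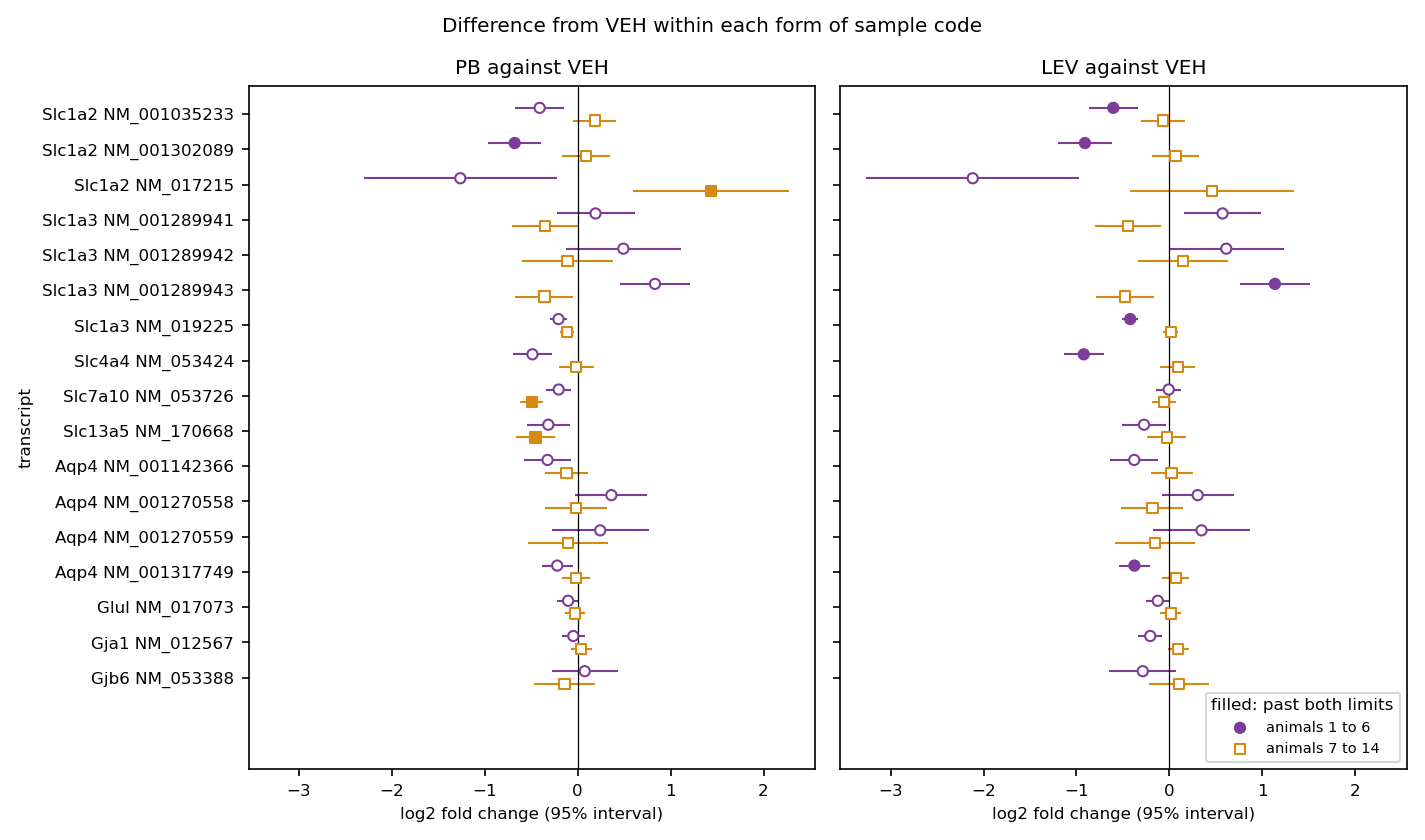
Log2 fold change against VEH of the 17 member transcripts with distinct values, with 95% intervals, for PB (left) and LEV (right) in animals 1 to 6 (purple circles) and animals 7 to 14 (orange squares). Filled symbols passed the adjusted p and fold limits, and for LEV these are all circles.

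Slc7a10 (NM_053726, rn6 chr1:91433030-91448567) was lower after PB in both code forms and did not respond detectably to LEV. In animals 7 to 14 VEH had 363.4, 398.5 and 452.4 normalized counts, PB 223.8, 288.1 and 335.8, and LEV 344.3, 384.1 and 418.9. All 8 PB animals were below every VEH and LEV animal there. The log2 fold change was -0.49 ± 0.06 against VEH (adjusted p = 8.39e-06) and -0.44 ± 0.06 against LEV (adjusted p = 5.96e-05).

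For animals 1 to 6 VEH had 374.1, 416.7 and 454.7 normalized counts of Slc7a10, PB 311.0, 358.6 and 394.9, and LEV 369.8, 399.0 and 460.4. All 6 PB animals lay below the VEH mean, although the groups overlapped, and the fold change of -0.20 ± 0.07 did not pass (adjusted p = 0.287). The PB difference between code forms was -0.29 (adjusted p = 0.242). Pooled, VEH averaged 405.6 ± 29.0 (SD, n = 13), PB averaged 315.9 ± 48.7 (n = 14) and LEV averaged 395.3 ± 31.4 (n = 14). PB differed from VEH by -0.36 ± 0.05 (adjusted p = 5.08e-05) and from LEV by -0.33 ± 0.05 (adjusted p = 0.000185), with 14 of 14 PB animals below the mean of each. LEV differed from VEH by -0.03, with a 95% interval from -0.13 to 0.07.

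The Slc7a10 call against VEH held in all 41 fits that left out 1 animal. The call against LEV lay just past the fold limit and was kept in 34 of 41. It fell under the fold limit without PB animal 6, 7, 11 or 14 or LEV animal 2, 3 or 11, where the fold change was as small as -0.30.

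Slc13a5 (NM_170668, rn6 chr10:58810054-58833891) was the other member lowered by PB. Its counts in animals 7 to 14 were 148.7, 174.9 and 197.4 in VEH, 80.4, 122.8 and 163.5 in PB, and 144.4, 170.1 and 196.3 in LEV. All 8 PB animals were below the VEH mean, with some overlap (-0.45 ± 0.11, adjusted p = 0.00951), and the difference against LEV was -0.42 ± 0.11 (adjusted p = 0.0272). The latter was lost without PB animal 7, 8 or 11 or LEV animal 11 (adjusted p up to 0.0823) and with the 18S share as a covariate (-0.33, adjusted p = 0.0864).

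Slc13a5 in animals 1 to 6 had 161.0, 172.7 and 192.1 normalized counts in VEH, 106.6, 146.0 and 168.3 in PB, and 128.6, 143.6 and 162.3 in LEV. Neither drug passed there, at -0.32 ± 0.12 for PB (adjusted p = 0.343) and -0.27 ± 0.12 for LEV (adjusted p = 0.319). Pooled, VEH averaged 173.4 ± 16.2 (SD, n = 13), PB 132.1 ± 27.7 (n = 14) and LEV 158.6 ± 18.5 (n = 14). The PB fold change was -0.39 ± 0.08 (adjusted p = 0.00413), with 14 of 14 animals below the VEH mean of their code form, and it held in all 41 fits that left out 1 animal. PB was 0.26 lower than LEV on the log2 scale, with an adjusted p of 0.0595.

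Glul, Gja1 and Gjb6 passed the limit in no comparison, pooled or within a code form. Glul (NM_017073, rn6 chr13:71331052-71340208) averaged 14869 ± 968 normalized counts (SD) over the 13 VEH animals, 14309 ± 1742 over the 14 PB animals and 14483 ± 1579 over the 14 LEV animals. The 95% interval of the log2 difference ran from -0.15 to 0.02 for PB and from -0.13 to 0.03 for LEV. All 6 LEV animals with 2-letter codes were below the VEH mean for Glul (-0.13 ± 0.06, adjusted p = 0.399).

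Gja1 (NM_012567, rn6 chr20:37876650-37889095) averaged 5479 ± 351 (SD) in VEH, 5494 ± 584 in PB and 5378 ± 657 in LEV, with intervals from -0.10 to 0.09 for PB and from -0.13 to 0.06 for LEV. Its counts in animals 1 to 6 were 4878, 5546 and 6040 in VEH and 4392, 4718 and 5283 in LEV, a difference of -0.21 ± 0.06 (adjusted p = 0.107). Gjb6 (NM_053388, rn6 chr15:37400891-37409669) had 104.7 ± 23.98 in VEH, 101.5 ± 36.1 in PB and 98.8 ± 19.0 in LEV. Its intervals were wider, from -0.29 to 0.21 for PB and from -0.32 to 0.19 for LEV, a range that nearly reaches the fold limit.

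The test of the difference between code forms passed for 6 of the 18 transcripts for LEV against VEH, where 0.842% of all transcripts passed. These were Slc4a4, Slc1a2 NM_001302089, Slc1a3 NM_019225 and NM_001289943 and both copies of the Aqp4 value. For PB against VEH it passed for 1 (0.0689% of all transcripts), Slc1a3 NM_001289943, and for PB against LEV for 1 (0.023%), Slc1a3 NM_019225. With all 14 VEH animals the LEV count was 2 and the PB count 0. The Aqp4 value also did not pass for LEV without the filter on low counts or with the choroid plexus level as a covariate. The code form cannot be told apart from anything else that differed between these animals.

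The summed counts of each symbol do not depend on how reads were divided among its own transcripts. Over all animals, PB called 2 of the 9 genes, Slc7a10 and Slc13a5 (0.674% of 12168 symbols called), LEV called 0 by edgeR and by DESeq2, with 4 at an unadjusted p under 0.05 (0% of symbols called), and PB against LEV called 1, Slc7a10 (0.608%). The 4 for LEV were Slc1a2 (-0.38), Slc1a3 (-0.16), Slc4a4 (-0.35) and Aqp4 (-0.13), with adjusted p of 0.102 to 0.811 by edgeR. For LEV, 734 of the 12168 symbols had an unadjusted p under 0.05. In animals 1 to 6, LEV called Slc4a4 (-0.92, adjusted p = 1.39e-06) and Slc1a2 (-0.86, adjusted p = 0.000128), with 0.888% of symbols called. The sums of Slc1a3 (-0.32, adjusted p = 1.82e-06) and Aqp4 (-0.31, adjusted p = 0.036) stayed under the fold limit, though neither overlapped VEH.

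PB called the sums of Slc1a2 (-0.64, adjusted p = 0.0338) and Slc4a4 (-0.49, adjusted p = 0.0398) in animals 1 to 6, where 0.0904% of symbols were called. PB called, in animals 7 to 14, Slc7a10 and Slc13a5 (1.61% of symbols), and LEV called 0 of the 9, with 0 at an unadjusted p under 0.05 (0.0247% of symbols). At that unadjusted limit, 770 of the 12168 symbols passed for LEV there. The Slc1a3 sum after PB was -0.15 ± 0.03 over all animals (adjusted p = 0.00611) and -0.14 ± 0.03 in animals 7 to 14 (adjusted p = 0.0112), under the fold limit in both, and -0.16 ± 0.04 in animals 1 to 6, which did not pass (adjusted p = 0.0848). At the adjusted p alone, the LEV difference between code forms passed for the sums of Slc4a4 (1.00, adjusted p = 0.00017), Slc1a2 (0.90, adjusted p = 0.0059) and Slc1a3 (0.28, adjusted p = 0.00271). The share of all symbols passing that limit was not counted. At an unadjusted p under 0.05, 5 of the 9 sums passed for this difference, against 1624 of the 12168 symbols. The difference in sums was not refitted with the excluded VEH animal included.

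Other genes of the same pathways were counted at an adjusted p under 0.05 in edgeR. Of 31 transcripts of glutamate and glutamine handling (28 symbols), PB lowered 8 and raised 0 over all animals, where 5.39% of all transcripts passed this limit, and LEV changed 0, with 6 at an unadjusted p under 0.05. Of all 13062 transcripts, 763 had such an unadjusted p for LEV. LEV lowered 5 of the 31 in animals 1 to 6, where 1.45% of all transcripts passed, among them Grm3, a metabotropic glutamate receptor of astrocytes (-0.64 ± 0.10, adjusted p = 8.18e-05), Slc7a11, the cystine-glutamate exchanger (-0.53 ± 0.09, adjusted p = 0.00055), and Glud1, glutamate dehydrogenase (-0.15 ± 0.04, adjusted p = 0.0170). In animals 7 to 14 LEV changed 0, with 0 at an unadjusted p under 0.05 (0.0383% of all transcripts passed the adjusted limit), and PB lowered 7 (6.32% of all transcripts passed). The unadjusted limit was passed by 801 of all 13062 transcripts for LEV there. The PB differences over all animals included Glud1 at -0.13 ± 0.03 (adjusted p = 0.00276), and none of the 8 reached the fold limit.

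Of 15 transcripts for potassium, water and endfeet (14 of 17 symbols), LEV lowered 3 in animals 1 to 6, against 1.45% of all transcripts. Kcnj10, the inward rectifier that carries astrocyte potassium currents, fell by 0.73 on the log2 scale (SE 0.09, adjusted p = 4.07e-06) and Dag1, which anchors endfeet to the basal lamina, by 0.19 (adjusted p = 0.0093). PB lowered 1 there, Kcnj10 again (-0.48 ± 0.09, adjusted p = 0.0141), against 0.0842% of all transcripts. LEV changed 0 of the 15 in animals 7 to 14, with 1 at an unadjusted p under 0.05, against 801 of all 13062 transcripts. Over all animals PB raised 1, Agrn, by 0.14 ± 0.04 (adjusted p = 0.0489), against 5.39% of all transcripts changed in either direction.

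Of 10 transcripts of the other connexins and pannexins (9 of 11 symbols), PB lowered 1 over all animals, Panx2 (-0.18 ± 0.05, adjusted p = 0.0259), against 5.39% of all transcripts changed in either direction. LEV changed 0 over all animals, with 1 at an unadjusted p under 0.05, against 763 of all 13062 transcripts. PB lay below LEV for Panx2 (-0.18, adjusted p = 0.0241). Of 21 transcripts for acid-base and carboxylate transport (17 of 19 symbols), PB lowered 2, among them the monocarboxylate transporter Slc16a1 (-0.16 ± 0.04, adjusted p = 0.0138), against the same 5.39%. LEV changed 0 of them over all animals, with 2 at an unadjusted p under 0.05, against the same 763 of 13062.

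Markers of astrocytes other than the members were examined beside the LEV result in animals 1 to 6. In that comparison, 1636 of all 13062 transcripts had an unadjusted p under 0.05. Of 21 transcripts of 15 astrocyte identity genes, 0 passed in edgeR and 3 had an unadjusted p under 0.05, with a median log2 fold change of -0.04. Their summed level was 61833 to 71236 normalized counts in LEV and 64876 to 75742 in VEH, with overlap. Neuron markers had 0 of 8 passing and 1 at an unadjusted p under 0.05. Summed endothelial markers were 3070 to 3451 in LEV and 2599 to 2971 in VEH, without overlap, although 0 of the 6 transcripts passed, with 3 at an unadjusted p under 0.05. Of the 7 hippocampal symbols tested only Zbtb20 passed, with NM_001105880 lower (-0.64, adjusted p = 0.0443). Of the 4 precursor symbols only Pdgfra passed, also lower (-0.26, adjusted p = 0.0443). Of all transcripts, 1.45% passed this limit in the comparison. The part of the endothelial, hippocampal and precursor markers in the result was not tested.

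Beside the PB result, 4 of the 21 astrocyte identity transcripts were lower over all animals, where 5.39% of all transcripts passed in either direction, namely Acsbg1 (-0.19, adjusted p = 0.00367), Aldoc (-0.16, adjusted p = 0.0136), Ndrg2 NM_001270864 (-0.21, adjusted p = 0.0261) and Fgfr3 (-0.17, adjusted p = 0.0395). Gfap, the intermediate filament that rises in reactive astrocytes, was higher (0.32 ± 0.06, adjusted p = 0.00241). Of 8 neuron transcripts 2 were lower, Camk2a (-0.26, adjusted p = 0.0364) and Stmn2 (-0.08, adjusted p = 0.0498), and of 11 mature oligodendrocyte transcripts 1, Opalin (-1.39, adjusted p = 0.0339). All 3 skeletal muscle transcripts tested were lower over all animals, Atp2a1 (-2.46, adjusted p = 0.00105), Myh4 (-2.06, adjusted p = 0.00426) and Acta1 (-0.44, adjusted p = 0.0102), and 0 of 3 passed in animals 7 to 14, with 0 at an unadjusted p under 0.05. At that unadjusted limit, 2840 of all 13062 transcripts passed for PB in animals 7 to 14. Summed muscle markers were 68.8 to 160.8 in PB and 115.8 to 447.2 in VEH, and within animals 1 to 6 they were 116.6 to 160.8 and 292.9 to 447.2, without overlap. The part of these markers in the PB differences was not tested.

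With the level of choroid plexus markers or the 18S share as a covariate, the LEV differences in animals 1 to 6 were -0.92 with either covariate for Slc4a4, -0.91 with either for Slc1a2 NM_001302089 and -0.42 with either for Slc1a3 NM_019225, as large as without. PB against VEH in animals 7 to 14 was -0.50 and -0.51 for Slc7a10 and -0.46 and -0.61 for Slc13a5. All of these stayed past both limits.

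**Figure D4:**
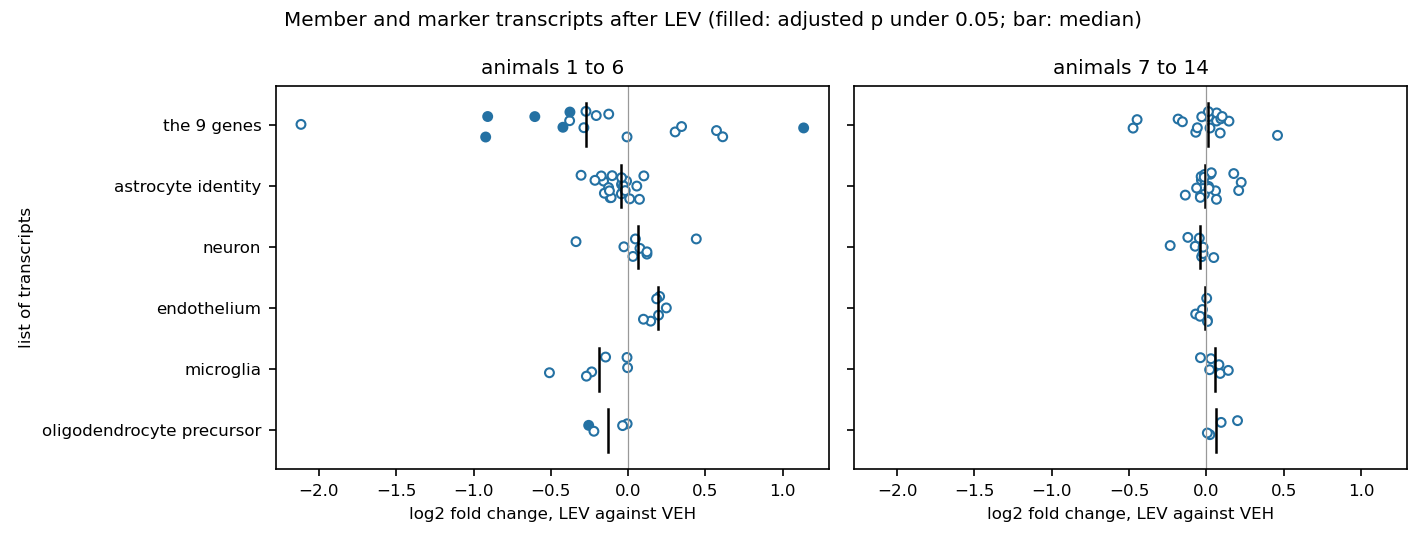
Log2 fold change of LEV against VEH for the 17 distinct member transcripts and for marker transcripts of 5 cell classes, in animals 1 to 6 (left) and animals 7 to 14 (right), with 1 point per transcript and a bar at each median. Filled points had an adjusted p under 0.05, which 6 member transcripts and 1 precursor marker reached in animals 1 to 6 and none of those shown in animals 7 to 14.

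The members varied together in part after the means of the 6 cells of treatment and code form were removed. Over the 41 animals, which share depth and dissection differences, Pearson's r was 0.71 between Slc1a2 NM_001302089 and Slc4a4, 0.66 between Glul and Gja1, 0.56 between Slc4a4 and Gja1, 0.54 between Slc1a2 NM_001302089 and Aqp4 and 0.54 between Slc1a3 NM_019225 and Aqp4. The lowest r among these pairs of members was -0.55, between Slc13a5 and Gja1. Slc7a10 had r of -0.18 with Slc1a2, -0.15 with Slc1a3 and -0.07 with Slc4a4. The transcripts of other symbols most like Slc1a2 were Purb (0.86) and Dlg2 (0.83), and those most like Slc4a4 were Dnajc5 (0.74) and Qk (0.73).

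For Slc1a3 the most similar were Bid (0.60) and Aqp4 (0.54), for Slc7a10 Sertad1 (0.62) and Cep63 (0.60), and for Slc13a5 Camkv (0.68) and Ubqln2 (0.67). Aqp4 was most like Tril (0.71) and Frem3 (0.71), Glul most like Apoe (0.71) and Tmem229a (0.70), and Gja1 most like Ntrk2 (0.76) and Scarb2 (0.68). Gjb6 was most like Aldh1a2 (0.83) and Ptgds (0.81), genes known from the meninges. These correlations are descriptions and carry no p.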

How the data were processed

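Hippocampal RNA of 42 animals was sequenced, and 41 were analysed. Per the labels and the study's methods, the authors aligned reads to rn6 with STAR 2.7.3a and quantified RefSeq transcripts with the expectation-maximization module of Partek, and they deposited estimated counts per transcript, 13.4% of which were not whole (tolerance 1e-06). A second deposited table holds the authors' DESeq2 results (p-values, adjusted p-values, fold changes and group means) and was not used. Counts were rounded to whole numbers. Transcripts were filtered with filterByExpr, normalized by TMM and tested with edgeR 4.0.16 (quasi-likelihood) in R 4.3.3, with code form as an additive term over all animals and with treatment by code form for values within a form and their difference. P-values were adjusted over all 13062 transcripts by Benjamini-Hochberg. Calls needed an adjusted p under 0.05 and a log2 fold change of 0.32 or more in size, and 95% intervals are 1.96 SE. Normalized counts are scaled to effective library sizes, which ran from 9588079 to 13786159. Isoform shares were tested by permutation (100000 resamples within code form, exact within a form). DESeq2 1.42.0, other filters, covariates, the replicate block and leaving out animals were alternatives. Scripts were tested on simulated data.

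The members and gene lists were chosen with earlier results of these data known. Every member transcript is named, with at most 4 genes of each pathway list past the adjusted p limit and the 2 transcripts most correlated with each member. Some genes of these lists are not reported here. The marker genes named are those past that limit. Counts lack transcript lengths, so levels were not compared between genes.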

Additional observations from a re-analysis of the deposited data

Results flagged for a closer look

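Of 102 groups of 6 to 8 animals checked, 10 held an animal far from the rest, where chance gives about 1 in 20. PB animal 2 was high for Slc1a2 NM_001035233 (327 normalized counts), Glul (16624) and Gja1 (6205) and low for Aqp4 NM_001270558 (288). VEH animal 3 was high for Slc1a2 NM_017215 (27.2) and Gjb6 (169.0). The others were LEV animal 14 for Slc1a2 NM_017215 (46.6), VEH animal 12 for Slc1a3 NM_001289942 (503), PB animal 11 for Aqp4 NM_001270559 (999) and PB animal 10 for Glul (18001).

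The drug effect differed between the code forms by the interaction term, given as animals 7 to 14 minus animals 1 to 6 on the log2 scale. For LEV against VEH the difference was 1.01 for Slc4a4, 0.97 for Slc1a2 NM_001302089, 0.44 for Slc1a3 NM_019225, -1.61 for Slc1a3 NM_001289943, 0.44 for Aqp4 NM_001317749 and the same 0.44 for NM_012825. For PB against VEH it was -1.19 for Slc1a3 NM_001289943, and for PB against LEV -0.34 for Slc1a3 NM_019225.

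The excluded VEH animal 7 lay above the range of the other VEH animals 8 to 14 for 8 transcripts. Its normalized counts were 4768 for Slc1a2 NM_001302089, 614 for NM_001035233, 179 for NM_017215, 1297 for Slc4a4, 457 for Slc7a10, 342 for Slc13a5, 2729 for Aqp4 NM_001142366 and 18256 for Glul. It lay below that range for 6 transcripts, with 144 for Slc1a3 NM_001289941, 15.7 for NM_001289942, 159 for NM_001289943, 160 for Aqp4 NM_001270558, 134 for NM_001270559 and 4979 for Gja1.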

How the results depend on the processing

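Of 1014 values under an alternative, 957 were labelled the same, 3 lost a call, 8 gained one, 46 moved and 0 reversed. For a single transcript, the same means an unchanged call or lack of a call, whatever the size of its difference. A count of members was also labelled the same when it changed by a small factor, such as from 3 to 2, and such counts are not among the 46. PB against VEH in animals 7 to 14 kept its main count in 8 of 15 fits that left out 1 animal, and all 15 were labelled the same. Fits that left out 1 animal and the difference between code forms entered only as counts of members. Calls of single transcripts lost in those fits are therefore not among the 3 and are given with each result. Alternatives marked as added were chosen after seeing the data, and causes of these changes were not tested. Over all animals, LEV against VEH called 1 member as the mean of both code forms and 1 with the 18S share as covariate (added), against 0, and PB against LEV called 0 as that mean, against 1. The difference between code forms called 2 members for PB in DESeq2 and 0 with all 14 VEH animals, against 1, and for LEV 2 with all 14, against 6. In animals 1 to 6, PB against VEH called 3 with the code form fitted alone, 3 in DESeq2 (added), 2 with the choroid plexus level (added), 2 with the 18S share (added) and 0 with all 14 VEH animals (added), against 1. PB against LEV there called 1 fitted alone and 1 in DESeq2 (added), against 0. In animals 7 to 14, PB against LEV called 1 fitted alone, 1 with the 18S share (added) and 1 with all 14 VEH animals (added), against 2. Isoform shares passing within a code form (added) were 3 for PB and 6 for LEV against VEH and 2 for PB against LEV in animals 1 to 6, and 1 for PB against LEV in animals 7 to 14, against 0 over all animals.

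Leaving out 1 animal gave 2 to 2 members for PB against VEH, 0 to 0 for LEV against VEH and 0 to 2 for PB against LEV over all animals. Within animals 1 to 6 it gave 0 to 2, 5 to 7 and 0 to 0, and within animals 7 to 14 it gave 2 to 3, 0 to 0 and 1 to 3. The replicate numbers did not clearly pair the animals (10 of 40 correlations of deviations over 0.1, and 3 of 41 animals closest to their own number). These correlations cannot exclude that some numbers stand for litters. With the replicate block in place of code form the counts stayed at 2, 0 and 1, and the adjusted p of Slc1a3 NM_019225 for PB rose to 0.0650.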

Other observations

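VEH animals alone differed by code form in the minor Aqp4 transcripts. NM_001270558 took 4.93% ± 0.508 (SD, n = 6) of the gene's counts in animals 1 to 6 and 10.1% ± 2.98 (n = 7) in animals 7 to 14, and NM_001270559 took 2.21% ± 0.340 and 5.80% ± 1.99. In each transcript the VEH animals of the 2 code forms did not overlap. In the excluded VEH animal the shares were 1.69% and 1.42%, below all other VEH animals.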
